A study of Mus musculus with 4 samples.

Results

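The atypical chemokine receptor Cxcr7, listed under its current symbol Ackr3, was followed with its ligand Cxcl12, the receptor Cxcr4 that shares this ligand, Cxcr3, the other atypical chemokine receptors Ackr1, Ackr2 and Ackr4, the related receptor Ccrl2, and the beta-arrestins Arrb1 and Arrb2. All probe sets annotated to 1 of these 10 gene symbols alone were taken, which gave 17 of the 45037 probe sets that are not array controls. No probe set annotated to several genes held a member. The array measures 18193 genes by probe sets of a single symbol.

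The samples were semilunar valve leaflets, from the aortic and pulmonary valves, of newborn mice. There were 2 pools of Cxcr7-/- neonates, in which the receptor gene is disrupted, and 2 pools of control neonates, wildtype littermates per the labels. Each pool held 3 neonates, with 4 to 6 leaflets from each mutant and 6 from each wildtype animal, and went onto 1 array after 2 cycles of amplification from 50 ng of total RNA. The labels give neither strain, age in days nor sex, and neither the part of the gene removed nor the position of the probes relative to it. The labels call the pools, of 3 animals each, biological replicates. The standard errors below come from limma. They combine the spread between pools of a probe set with that of other probe sets of like intensity.

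Chemokine receptors of the classical kind couple to inhibitory G proteins and drive cell migration towards their ligand. Atypical chemokine receptors bind chemokines without that coupling, recruit beta-arrestins to differing degrees, and take the ligand up or carry it, which shapes how much of it nearby cells can sense. Cxcr7 does this for CXCL12, the ligand that Cxcr4 signals from, and in mice its loss is known for thickened and malformed semilunar valves. CXCL12 is made by mesenchymal and endothelial cells.

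Ackr3 signal was far lower in Cxcr7-/- leaflets. Its probe set, 1417625_s_at, read 28.3 and 328 in Cxcr7-/- pools and 4936 and 5698 in control pools, in arbitrary units of signal on a linear scale. Both mutant pools lay far below both control pools. The signal stood at the 29.8th and 70.9th percentile of all probe sets within the Cxcr7-/- arrays, against the 96.6th and 96.9th percentile within the control arrays.

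The mutant pools were not alike in this. Replicate 2 of the Cxcr7-/- pools had 11.6 times the signal of replicate 1, whereas the control pools differed by only 0.21 on the log2 scale. Relative to the mean of the control pools, 0.532% of the signal was left in Cxcr7-/- replicate 1 and 6.18% in Cxcr7-/- replicate 2. The suffix of the probe set marks probes shared by more than 1 transcript. Whether the signal in replicate 2 came from Ackr3 RNA was not tested.

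On the scale of log2(signal + 22), Ackr3 had a log2 fold change (Cxcr7-/- minus control) of -5.33 ± 0.76 (SE, n = 2 and 2 pools), with a 95% interval of -7.08 to -3.57. This ranked 1 among the 22518 probe sets that passed a filter on dim signal, by size of the fold change as well as by unadjusted p. The adjusted p from limma was 0.400 and missed the threshold of 0.05, as it did for every probe set: 0.0% of those kept passed, while 10.1% had an unadjusted p under 0.05. Whether Ackr3 passed changed with the pool left out. In those fits the lone pool of a genotype is assumed to vary like the other genotype, so only effect sizes are given. The log2 fold change was -6.73 without Cxcr7-/- replicate 2 and -3.93 without Cxcr7-/- replicate 1. It was -5.43 without control replicate 1 and -5.22 without control replicate 2. The fits without a mutant pool leave out the 2.80 log2 by which the mutant pools differed, so their p-values do not carry that spread.

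**Figure D1:**
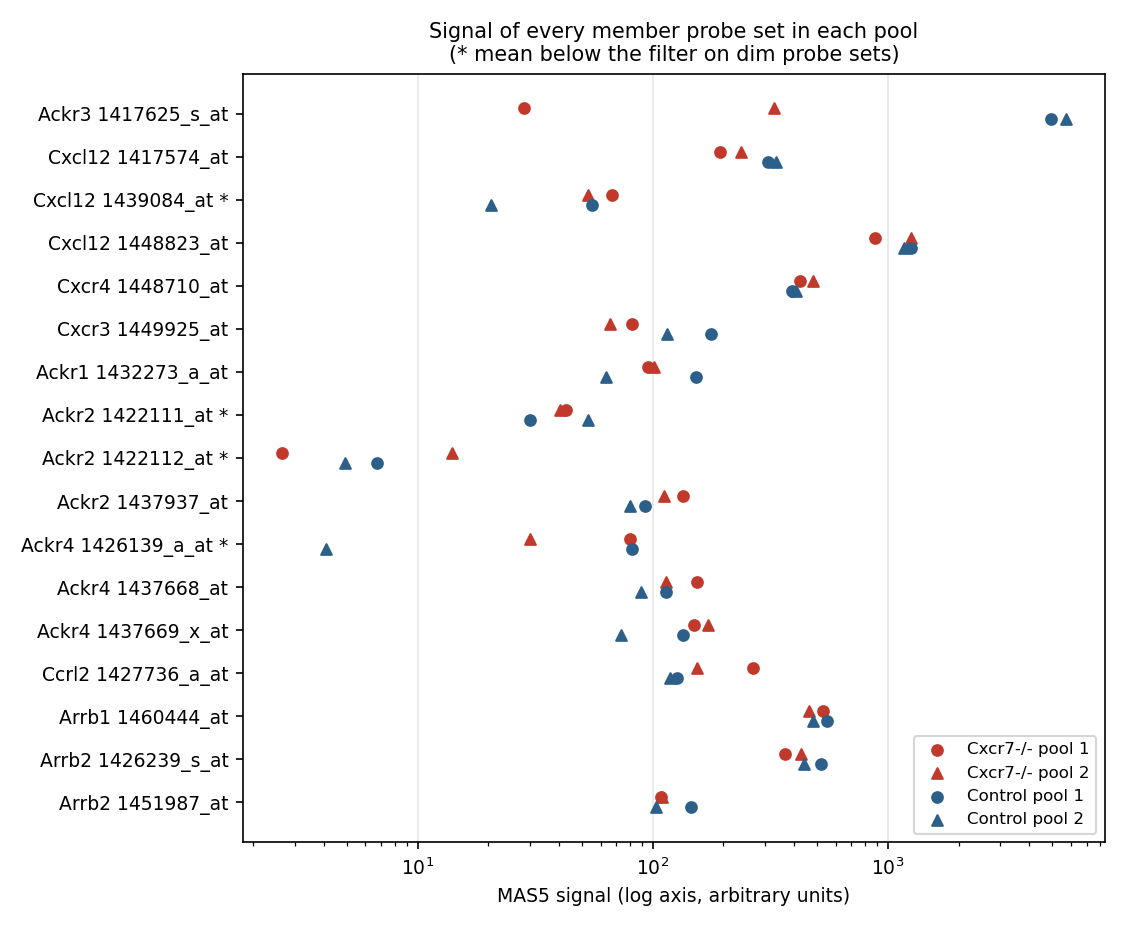
Signal of each of the 17 probe sets in each pool, on a log axis in arbitrary units, with Cxcr7-/- pools in red and control pools in blue, and circles for replicate 1 and triangles for replicate 2. Ackr3 is the 1 row in which the genotypes lie at least 2-fold apart in all 4 comparisons of a mutant with a control pool. Positions on the axis compare pools within a row, not genes with each other.

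Genes measured around Ackr3 on chromosome 1 had small differences between genotypes. None lay directly beside it, since these genes were 9 to 52 genes away in the gene order. The nearest 5 genes on each side with a kept probe set had log2 fold changes between -0.57 and 0.35, and none of these 10 had an unadjusted p under 0.05 in limma. Agap1, the closest on 1 side at 10 genes away, encodes a GTPase-activating protein of the Arf family and was at -0.26 ± 0.34. Cops8, the closest on the other side at 9 genes away, encodes a subunit of the COP9 signalosome and was at -0.13 ± 0.29. The genotypes overlapped for 8 of the 10 and did not for 2, where 42.4% of all kept probe sets had no overlap. Ube2f, which encodes an enzyme of NEDD8 conjugation, read 1884 and 1835 in Cxcr7-/- pools against 2420 and 2228 in control pools. Usp40, of the deubiquitinase family, read 868 and 818 against 736 and 588.

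**Figure D2:**
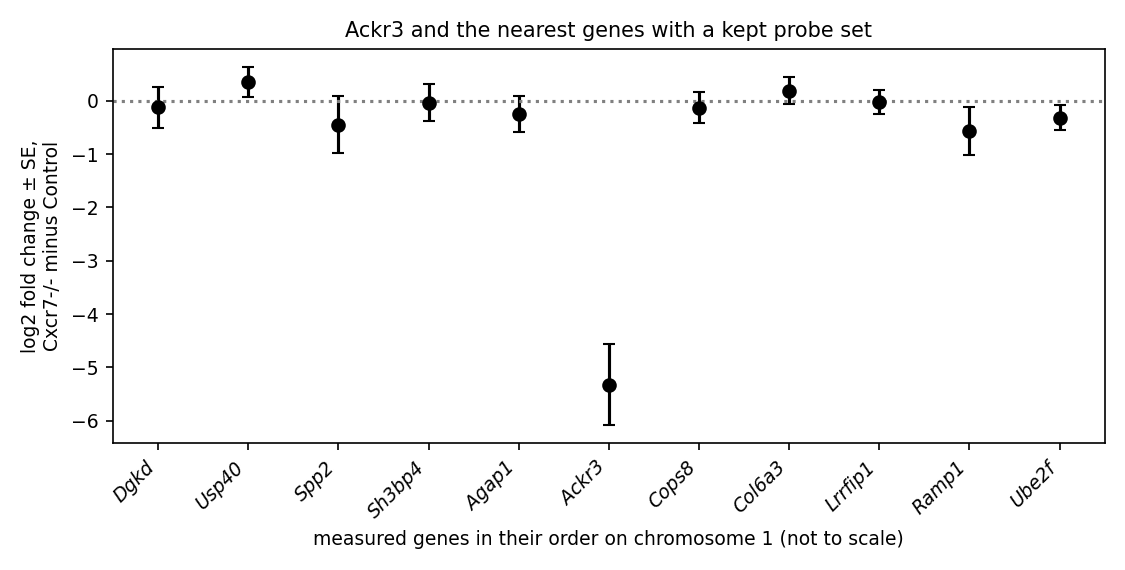
Log2 fold change (Cxcr7-/- minus control, ± SE, n = 2 and 2 pools) of Ackr3 and of the 5 nearest genes on each side that had a kept probe set, in their order on chromosome 1. Ackr3 lies at -5.33. The other genes, 9 to 52 genes away from it in the gene order, lie between -0.57 and 0.35.

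Of the 17 probe sets of the 10 genes, 13 passed the filter and every gene kept at least 1. Apart from Ackr3, none of the other 12 had an unadjusted p under 0.05 in limma, and their smallest adjusted p was 0.557. Their median absolute log2 fold change was 0.30, beside 0.31 over all probe sets kept. The genotypes did not overlap for 8 of the 12, with 5 higher and 3 lower in Cxcr7-/- pools, beside the 42.4% of all kept probe sets with no overlap, 20.1% higher and 22.3% lower. Ackr3 alone had each mutant pool at least 2-fold away from each control pool, as did 1.64% of all kept probe sets.

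**Figure D3:**
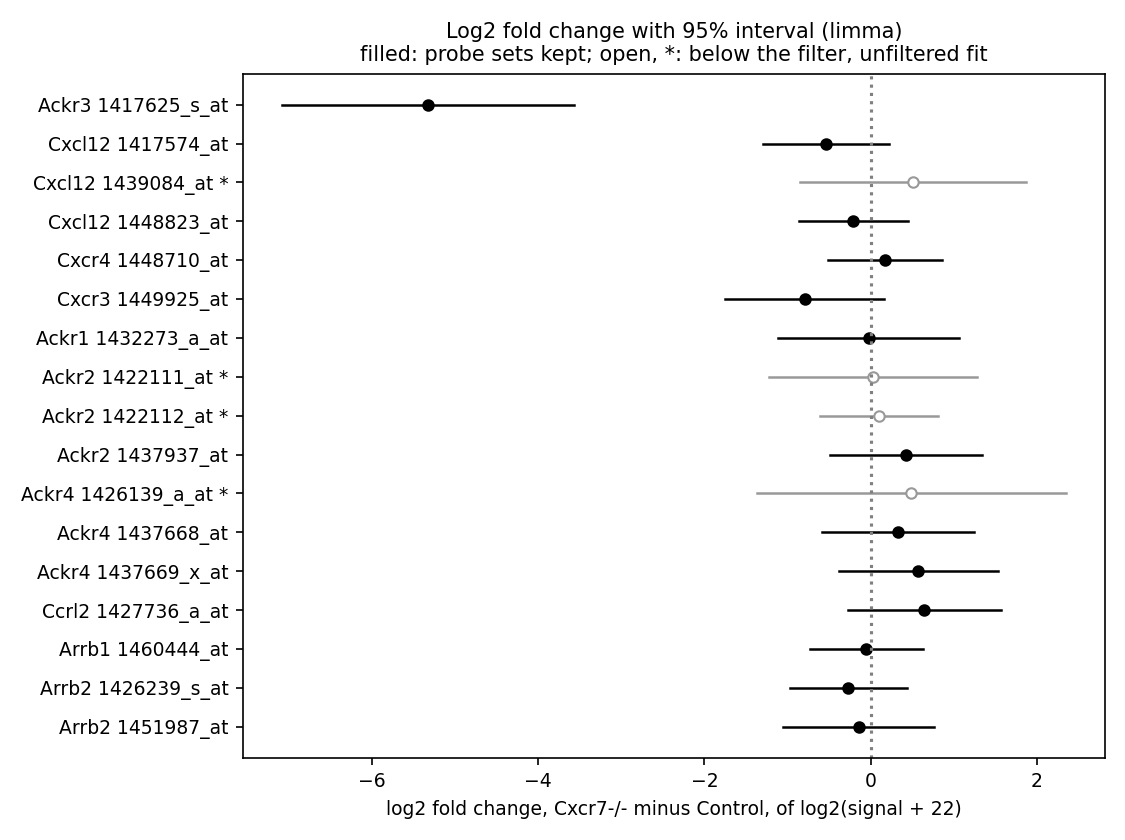
Log2 fold change (Cxcr7-/- minus control) of every probe set with its 95% interval from limma (n = 2 and 2 pools). Filled points passed the filter on dim signal, and open points, marked with an asterisk, did not and come from the unfiltered fit. All intervals other than that of Ackr3 include 0.

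The ligand Cxcl12 had 3 probe sets, which did not all point the same way. The brightest, 1448823_at, read 882 and 1250 in Cxcr7-/- pools and 1255 and 1176 in control pools. Here Cxcr7-/- replicate 1 was the low pool and the other mutant pool lay between the controls. The log2 fold change was -0.21 ± 0.29 (limma, adjusted p = 0.839), and its 95% interval allowed anything from 0.548 to 1.37 times the control level.

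A further Cxcl12 probe set, 1417574_at, was lower in both mutant pools, with 194 and 238 in Cxcr7-/- pools against 309 and 334 in control pools. Its log2 fold change was -0.54 ± 0.33 (limma, adjusted p = 0.620). The remaining one, 1439084_at, did not pass the filter. It read 66.8 and 53.2 in Cxcr7-/- pools and 55.4 and 20.6 in control pools, so the genotypes overlapped and the sign was the opposite one (0.51 ± 0.57 in the unfiltered fit). A difference in Cxcl12 RNA was not detectable with these arrays.

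Markers of the cells known to make Cxcl12 differed between pools. Endothelial markers, on a list of 12 genes, were lower for 10 and had a median log2 fold change of -0.49, with a summed signal of 12835 and 12193 in Cxcr7-/- pools against 18030 and 20446 in control pools. Valve interstitial markers, also 12 genes, had a median of 0.07 and a summed signal of 337279 and 349954 against 357474 and 253491. Fewer cells of a type and less RNA per cell cannot be told apart in such pools. The part of either in the Cxcl12 values was not tested.

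Cxcr4, the G protein-coupled receptor through which CXCL12 directs migration, was even across all pools. Its single probe set, 1448710_at, read 424 and 483 in Cxcr7-/- pools and 391 and 406 in control pools. Both mutant pools were above both controls, by a margin smaller than the distance between the mutant pools. The log2 fold change was 0.17 ± 0.30 (limma, adjusted p = 0.876). The 95% interval ran from 0.700 to 1.82 times the control level, so a difference within that range was not detectable with 2 pools per genotype.

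Macrophages express Cxcr4 and their markers were higher in the mutant pools. All 12 listed macrophage genes had positive log2 fold changes with a median of 0.97, and their summed signal was 21870 and 19690 in Cxcr7-/- pools against 13985 and 11713 in control pools. Csf1r, the receptor for the macrophage growth factor CSF1, read 10428 and 9317 against 8035 and 6899. The part of these cells in the Cxcr4 signal was not tested.

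Cxcr3, the receptor of activated T cells and natural killer cells for CXCL9, CXCL10 and CXCL11, showed the largest log2 fold change after Ackr3 among the kept probe sets of these genes. Probe set 1449925_at read 81.5 and 66.0 in Cxcr7-/- pools and 178 and 115 in control pools. The mutant pools were both lower, and the control pools differed from each other by 0.54 on the log2 scale. Its mean signal lay at the 52.7th percentile of all probe sets, and the mutant pools alone would not have passed the filter. The log2 fold change was -0.79 ± 0.41 (limma, adjusted p = 0.557), and it was -1.06 without control replicate 2 and -0.52 without control replicate 1.

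Lymphocyte markers gave little signal in any pool. Of 8 matched genes, Cd8a alone passed the filter, and the T cell receptor component Cd3e read 13.7 and 27.3 in Cxcr7-/- pools against 14.2 and 9.97 in control pools. Cd8a, a coreceptor of cytotoxic T cells, read 88.8 and 150.3 against 78.0 and 70.8. Lymphocyte genes below the filter differed in direction. Cd3d read 3.07 and 4.97 against 6.42 and 27.5, whereas Nkg7 read 50.4 and 41.6 against 6.14 and 5.47. The part of these cells in the Cxcr3 signal was not tested. The ligand gene Cxcl10 read 94.0 and 102 in Cxcr7-/- pools against 72.0 and 92.8 in control pools. Cxcl11, whose product binds both Cxcr3 and Cxcr7, did not pass the filter, at 13.2 and 11.0 against 15.4 and 79.4. Its difference came from control replicate 2.

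The other atypical receptors and Ccrl2 had 5 kept probe sets, of which 4 had both mutant pools above both controls, where 20.1% of all kept probe sets did. The probe sets of these genes below the filter all overlapped between genotypes. Ackr2 1437937_at passed the filter, on the mean of all 4 pools, only through its mutant pools. The count is therefore a description. Ccrl2, which binds the chemoattractant chemerin and presents it to neighbouring cells, had the largest log2 fold change of these kept probe sets. Probe set 1427736_a_at read 267 and 155 in Cxcr7-/- pools and 127 and 118 in control pools. The log2 fold change of 0.65 ± 0.40 (limma, adjusted p = 0.623) leaned on 1 pool, since without Cxcr7-/- replicate 1 it was 0.29. The chemerin gene Rarres2 read 695 and 391 in Cxcr7-/- pools against 859 and 713 in control pools, and the chemerin receptor gene Cmklr1 read 296 and 166 against 171 and 203.

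Ackr4, a scavenger of the homeostatic chemokines CCL19, CCL21 and CCL25, had 3 probe sets. In 1437669_x_at the signal was 149 and 172 in Cxcr7-/- pools and 135 and 73.2 in control pools (log2 fold change 0.58 ± 0.42, or 0.22 without control replicate 2). In 1437668_at it was 154 and 114.4 in Cxcr7-/- pools and 113.9 and 89.3 in control pools (0.33 ± 0.40). The lower mutant pool and the higher control pool were almost equal here. These 2 probe sets are annotated from the same sequence record and so are not independent of each other.

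The remaining Ackr4 probe set, 1426139_a_at, was below the filter and did not separate the genotypes, at 80.2 and 30.2 in Cxcr7-/- pools against 82.0 and 4.08 in control pools. Control replicate 2 was the low pool in all 3 probe sets of Ackr4. Of the ligand genes, Ccl25 read 78.2 and 134 in Cxcr7-/- pools against 117 and 141 in control pools. Ccl19 and Ccl21a had no probe set of their own in the annotation.

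Ackr2, also known as D6, takes up inflammatory CC chemokines and is known from lymphatic endothelium. Its kept probe set, 1437937_at, read 135 and 112 in Cxcr7-/- pools and 92.3 and 79.9 in control pools, a log2 fold change of 0.43 ± 0.39 (limma, adjusted p = 0.745). The other Ackr2 probe sets were dim. Probe set 1422111_at read 43.0 and 40.5 in Cxcr7-/- pools against 29.9 and 53.3 in control pools, and 1422112_at read 2.66 and 14.0 against 6.72 and 4.90. In both of these the genotypes overlapped.

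Lymphatic endothelial markers were lower for 4 of 6 genes, with a median log2 fold change of -0.27 and a summed signal of 3146 and 3294 in Cxcr7-/- pools against 3603 and 3966 in control pools. Single genes of the list differed in direction. Lyve1, a hyaluronan receptor of lymphatic endothelium and of some macrophages, read 312 and 651 in Cxcr7-/- pools against 290 and 293 in control pools. Prox1, the transcription factor of lymphatic and valve endothelium, read 226 and 409 against 873 and 293, with control replicate 1 as the high pool. Of the Ackr2 ligands, Ccl2 read 299 and 204 in Cxcr7-/- pools against 74.0 and 201 in control pools (0.88 ± 0.48, limma adjusted p = 0.584). Ccl12 read 215 and 93.9 against 109 and 109.

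Ackr1, the Duffy antigen, carries chemokines on red cells and on the endothelium of venules. Its probe set, 1432273_a_at, overlapped between genotypes. The signal was 95.7 and 101 in Cxcr7-/- pools and 153 and 63.4 in control pools, so both mutant pools lay between the controls. The log2 fold change was -0.02 ± 0.47 with a 95% interval from 0.463 to 2.09 times the control level, and its sign turned under median centring (0.12) and quantile normalization (0.09). The 2 kept erythroid genes did not share 1 highest pool. Alas2, an enzyme of heme synthesis, read 497 and 858 in Cxcr7-/- pools against 664 and 898 in control pools, and the anion exchanger Slc4a1 read 322 and 986 against 1203 and 437.

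The beta-arrestins, which bind phosphorylated receptors and carry Cxcr7 signalling and traffic, were close to level. Arrb1 read 532 and 461 in Cxcr7-/- pools and 551 and 480 in control pools by probe set 1460444_at, a log2 fold change of -0.05 ± 0.29 that was 0.09 after median centring. Arrb2 read 366 and 426 against 522 and 440 by 1426239_s_at (-0.27 ± 0.30) and 109 and 109.9 against 145 and 104 by 1451987_at (-0.14 ± 0.39). Limma's adjusted p was at least 0.797 for these 3 probe sets. Their 95% intervals still allowed a change to between 0.484 and 1.70 times the control level.

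A list of partners of the CXCL12 axis was compared as a group. It held 30 genes of G protein subunits, receptor kinases, kinases, adaptors and cofactors, of which 27 were matched and 24 had a kept probe set. Of these, 13 were higher and 11 lower in Cxcr7-/- pools, and none passed the adjusted threshold in limma. The genotypes did not overlap for 9 of the higher and 1 of the lower genes. Over all kept probe sets, 20.1% were higher and 22.3% lower with no overlap. At an unadjusted p under 0.05 there was 1 higher gene of the 24, beside 3.93% of all genes with a kept probe set, and 1 lower gene, beside 4.03%. The median log2 fold change was 0.19, beside 0.00 over the 11260 genes with a kept probe set. It was 0.06 without Cxcr7-/- replicate 2 and 0.09 without control replicate 1, and 0.11 over all 27 matched genes without the filter.

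The higher one was Gnai1, which encodes an inhibitory G protein alpha subunit of the kind that Cxcr4 couples to. It read 11026 and 11329 in Cxcr7-/- pools and 7733 and 5973 in control pools (0.72 ± 0.23, limma adjusted p = 0.433). Its relative Gnai3 read 11632 and 11659 against 8720 and 8572 (0.43 ± 0.20), whereas Gnai2 overlapped between genotypes, at 6833 and 7534 against 5749 and 11213. The lower one was Grk3, a kinase that phosphorylates activated receptors, with 313 and 342 in Cxcr7-/- pools against 556 and 551 in control pools (-0.72 ± 0.30, adjusted p = 0.475). Pools of 1 genotype were close to each other for Gnai3 and Grk3.

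The next partners by p, Vcam1 and Rac1, missed an unadjusted p of 0.05 in limma. The adhesion ligand Vcam1 read 4594 and 3679 in Cxcr7-/- pools against 3321 and 1699 in control pools (0.79 ± 0.34, limma unadjusted p = 0.051). The small GTPase Rac1 read 10186 and 10723 in Cxcr7-/- pools against 7484 and 7808 in control pools (0.45 ± 0.21, limma unadjusted p = 0.062). Dock2, a Rac activator of leukocytes, read 124 and 190 against 118 and 40.1. Mif, a cytokine that binds Cxcr4 and Cxcr7, overlapped between genotypes at 2090 and 1965 against 1629 and 2652. Its coreceptor Cd74 read 116 and 256 against 114 and 166.

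Ligands of the other receptors were mostly too dim to test. Of 22 listed genes, 20 were matched and 8 passed the filter, 5 higher and 3 lower in Cxcr7-/- pools and none at an unadjusted p under 0.05 in limma. Their median log2 fold change of 0.26 was -0.10 over all 20 without the filter. Classical chemokine receptors other than Cxcr3 and Cxcr4 gave 5 kept genes of 15 matched. All 5 had positive log2 fold changes, with a median of 0.70 and none at an unadjusted p under 0.05. Over all genes with a kept probe set, 5669 of 11260 had positive values. Ccr9 and Ccr2 passed the filter, on the mean of all pools, only through their mutant pools. Being kept therefore favoured a positive sign for these genes, and the count is a description. For the receptor list, leaving out control replicate 2 gave a median of 0.34 and leaving out control replicate 1 gave 1.10. All 15 without the filter gave 0.23. Ccr1, a receptor of monocytes and macrophages, read 308 and 185 in Cxcr7-/- pools against 177 and 59.3 in control pools. Cx3cr1, the fractalkine receptor of the same cells, read 637 and 637 against 623 and 234, where control replicate 2 was the low pool. Ccr9 read 36.6 and 417 against 56.3 and 52.9, so 1 mutant pool made its value.

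**Figure D4:**
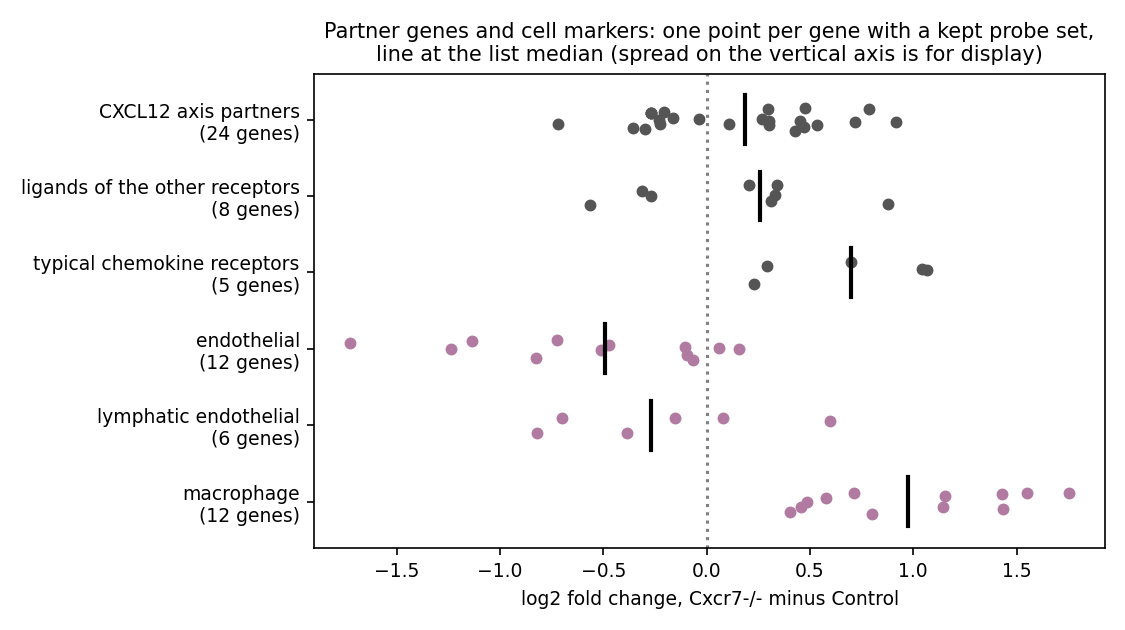
Log2 fold changes (Cxcr7-/- minus control) of single genes, 1 point per gene with a kept probe set, for the 3 partner lists (grey) and for endothelial, lymphatic endothelial and macrophage markers (purple), with the list median as a black line. The partners of the CXCL12 axis lie on both sides of 0 with a median of 0.19, the 12 macrophage markers all lie above 0, and 10 of 12 endothelial markers lie below 0.

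The genes whose signal ran most like that of Ackr3 over the 4 arrays were Lsamp (Pearson r = 0.9997), H3f3b (0.9971), Cux2 (0.9970), Dcun1d1 (0.9948), Adcy5 (0.9925) and Eln (0.9924). They were picked from 642 probe sets with 1 gene symbol and at least a 4-fold range on the log2(signal + 22) scale, and with only 4 points a high r is easily reached, so the values are a description. Lsamp, a neuronal adhesion molecule, read 110 and 216 in Cxcr7-/- pools and 565 and 593 in control pools. Adcy5, an adenylyl cyclase, read 36.8 and 71.5 against 246 and 223. In all 6, Cxcr7-/- replicate 1 was the lowest pool and Cxcr7-/- replicate 2 the next, an order that their selection by likeness to Ackr3 favours.

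The arrays differed in quality values that touch these results. The median of all probe sets was 84.5 and 92.5 in Cxcr7-/- pools and 109.9 and 89.9 in control pools. Actb controls had a 3' signal that was 15.5 and 11.7 times the 5' signal in Cxcr7-/- pools, against 20.2 and 19.1 times in control pools. For the Gapdh controls this ratio was 12.6 and 8.20 in Cxcr7-/- pools against 12.7 and 24.2 in control pools, where control replicate 2 stood apart. Their part in the values above was not tested. Of the valve interstitial genes, Dcn, which encodes the proteoglycan decorin, was the brightest and read 66304 and 66784 in Cxcr7-/- pools against 68440 and 48668 in control pools. Scx, a tendon transcription factor on the same list, passed the filter with a far lower signal, at 228 and 139 against 262 and 85.6. Cardiomyocyte markers were present as well, with a summed signal of 68738 and 96589 against 122466 and 156328, the highest being control replicate 2. All 8 were lower in Cxcr7-/- pools, with a median log2 fold change of -1.10. Both mutant pools were below both controls for 7 of the 8, beside 22.3% of all kept probe sets. The part of these markers in the values above was not tested either.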

How the data were processed

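The authors deposited 1 linear intensity (MAS5 signal) per probe set for each of 4 arrays. The submitters' processing notes name MAS5 and Affymetrix Expression Console, without versions, and detection calls and the build used were not given in the sources. Because MAS5 subtracts a background, the relative error of dim probe sets is large. The number of arrays limits the precision.

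The 64 control probe sets were set aside. Signals were taken as log2(signal + 22), where 22 is the rounded 25th percentile, and 22518 probe sets with a mean above the median were kept. Genes came from a platform annotation table, with symbols and gene order updated through RefSeq (GRCm38.p6): 34945 probe sets had 1 symbol, 932 several and 9160 none. For lists, the probe set with the highest mean stood for its gene.

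The genotype contrast was fitted in R 4.3.3 by limma 3.58.1 (lmFit, eBayes with intensity trend, two-sided, Benjamini-Hochberg over the probe sets kept), with 2 residual and 5.85 prior degrees of freedom. An exact permutation test of 2 against 2 pools cannot give a p below 0.333 and was not used. The procedure was also run on simulated data drawn from limma's own fitted spread, equal in both genotypes. That run cannot judge the fits where the genotypes differ in spread, as for Ackr3. The members and lists were chosen with earlier results of these data known. Genes named were all members, up to 6 of each partner list by unadjusted p with a few fixed ligands, neighbours of Ackr3 and 6 genes of like pattern. The brightest macrophage, valve interstitial and lymphocyte markers were named too. Those of the endothelial, lymphatic endothelial and cardiomyocyte lists were not. Gnai2, Mif, Cd74, Cxcl10, Cd3e, Cd3d, Nkg7, Prox1, Lyve1, Scx, Alas2 and Slc4a1 were chosen after their values were seen.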

Additional observations from a re-analysis of the deposited data

How the results depend on the processing

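Alternatives were a pseudocount of none or 4 times the size, a filter of none or at the 75th percentile, median centring, quantile normalization, no intensity trend, the replicate number as a block, and each pool left out. Ackr3 kept its sign in all 12 alternatives, between -6.73 and -3.93 with a pool left out and between -5.78 and -4.61 otherwise. It passed the adjusted threshold without Cxcr7-/- replicate 2 and without control replicate 1 (-5.43), in fits that assume the lone pool to vary like the other genotype. Median centring moved every log2 fold change by 0.14. The members past that threshold were 0 to 1 with a pool left out, and all probe sets past it were 0 to 673. Members at an unadjusted p under 0.05 were 2 without the intensity trend, Cxcr3 being the second. Members with every mutant pool at least 2-fold from every control pool were 1 to 2 with a pool left out. With a pool left out there are fewer comparisons to meet. The shares over all kept probe sets were not counted in these settings, so the second member cannot be set against them. For other kept member probe sets, 126 of 135 values kept their sign and none passed the threshold. Signs turned for Ackr1 (0.12 with median centring, 0.09 with quantile normalization, -0.54 to 0.50 with a pool left out), Arrb1 (0.09 with median centring, -0.15 to 0.05 with a pool left out), Arrb2 1451987_at (-0.35 to 0.06) and Cxcl12 1448823_at (-0.45 to 0.04). The cause was not tested. The median of the ligands of the other receptors was -0.10 without the filter, -0.56 for the 1 gene left at the 75th percentile, and -0.06 to 0.21 with a pool left out. Replicate numbers are tied to no litter or day by the labels. The deviations of same-numbered pools from their genotype means were weakly and inversely correlated (r = -0.26 across probe sets). With the replicate block, Ackr3 was at -5.33 (limma adjusted p = 0.0733), and the block changed no call. With crossed pairing, chosen after seeing the data, 5 probe sets passed, 1 of them a member.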
